A study of Mus musculus with 8 samples.

Results

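The cytosolic ribosomal protein genes were examined in mouse immature myeloid cells (IMCs) that carried or lacked a myeloid deletion of PARP1 or PARP2. Members were the rows of the count table whose symbol has the form Rpl or Rps with a number, together with Rpsa, Rplp0, Rplp1 and Rplp2, at a mean of 10 CPM (counts scaled to a common library total) or more over the 8 libraries. Of 24062 rows, 84 matched by symbol and 80 were members, 48 of the large and 32 of the small subunit. All 80 passed the filter on low counts that left 13197 genes for testing. The row just inside the threshold was Rpl22l1 (10.8 CPM), and the 4 below it were Rps4l (5.68 CPM), Rpl39l (0.420 CPM), Rpl3l (0.218 CPM) and Rpl10l, which had 0 counts in every library. The rule chose by symbol and overall level, not by any difference between groups.

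Total RNA came from C57BL/6 mice of 2 months. PARP1 WT mice were PARP1 flox/flox without Cre, and PARP1CKO mice carried lysozyme-Cre as well. PARP2 WT mice were PARP2 flox/flox without Cre, and PARP2CKO mice carried lysozyme-Cre as well. Each of the 4 groups has 2 libraries, and all cells were bone marrow cells grown for 3 days in 40 ng/mL of M-CSF. Lysozyme-Cre acts in the myeloid lineage, the cultures were not sorted for the RNA, and nothing used here says whether the 2 libraries of a group came from separate mice, so p-values measure only the spread between these libraries. Because the WT groups carry different floxed alleles, the difference between them combines line, litter and any batch, which cannot be told apart.

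A cytosolic ribosome is built of a large and a small subunit, each made of ribosomal RNA and of proteins that are present, as a rule, in a single copy. The genes for these proteins are scattered over the genome, and their mRNAs begin with a run of pyrimidines (the terminal oligopyrimidine tract, TOP) through which mTOR signalling controls their translation as a group. Ribosomal protein mRNAs are abundant in growing cells such as cultured myeloid progenitors. Several of them, Rpl19 among them, serve as reference genes in RT-qPCR, and Rpl19 was the mouse reference gene of the study.

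Libraries held between 37852450 and 61845125 counts on genes. As a check of the labels, Parp1 had 202 and 211 CPM in PARP1 WT IMCs against 63.2 and 59.1 CPM in PARP1CKO IMCs (adjusted p = 0.0134, edgeR). Parp2 had 48.2 and 48.3 CPM in PARP2 WT against 25.7 and 25.6 CPM in PARP2CKO (adjusted p = 0.000139). Parp1 was uneven within the PARP2 line, although it is not the floxed gene there. It stood at 251 CPM in PARP2 WT replicate 1 but only at 155 in replicate 2, while the PARP2CKO libraries reached 263 and 264. The low value of PARP2 WT replicate 2 lay below both PARP1 WT libraries and above both PARP1CKO libraries. Its cause was not tested. The library PARP1 WT replicate 1 stood apart for the members. Their deviations from each gene's own mean over the 8 libraries had an SD of 0.104 on the log2 scale there, against 0.0338 to 0.0618 in the other 7 libraries, and 11 members lay more than 0.15 below their mean in it. Where a named value moved by more than 1.5 times or changed sign without that library, the value without it is given below.

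The members took a similar part of every library. Their share of all counts in PARP1 WT was 3.40% and 3.38%, in PARP1CKO 3.35% and 3.30%, in PARP2 WT 3.49% in both libraries, and in PARP2CKO 3.49% and 3.40%. Exact binomial 95% intervals reached between 0.0046 and 0.0058 points to either side and cover counting error only. The highest share in the PARP1 line was 3.40%, in PARP1 WT replicate 1, and the lowest in the PARP2 line was 3.40%, in PARP2CKO replicate 2. Both lines therefore met at about the same share, while the other 3 PARP2 libraries lay above all 4 PARP1 libraries. With the 10 most abundant other rows taken out of the total the lines did not meet, at 3.70% to 3.79% in the PARP1 line and 3.85% to 3.98% in the PARP2 line.

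Levels within the family spanned a wide range. Compared per kb of the representative transcript, the highest was Rps24, a small subunit protein whose gene is mutated in Diamond-Blackfan anaemia, at 1836 CPM per kb (1767 to 1891 over the 8 libraries). It was followed by Rps12 with 1360 CPM per kb, by Rplp1, an acidic protein of the ribosomal stalk, with 1326, by Rpl41 with 1238 and by Rpl19 with 1063. The ranges of Rps12 (1290 to 1416), Rplp1 (1094 to 1544) and Rpl41 (1146 to 1315) overlapped, that of Rpl19 (1021 to 1124) overlapped Rplp1, and that of Rps2 (852 to 1024), which came next, overlapped Rpl19. Within each single library, however, Rps12 stood above Rpl41, Rplp1 above Rpl19 and Rpl19 above Rps2. The order of Rplp1 against Rps12 and against Rpl41 changed between libraries and was not separated from the spread over them. Rplp0, the scaffold of the stalk, had 822 CPM per kb, and Rplp2, the partner of Rplp1 in it, had 236. Rps6, the small subunit protein that S6 kinases phosphorylate, had 869 CPM per kb, and Rpsa, a small subunit protein also known as the laminin receptor, had 730. Rpl5 and Rpl11, which together with 5S RNA bind MDM2, had 320 and 548 CPM per kb, and Rpl3, near the peptidyl transferase centre, had 517. Rps19, another Diamond-Blackfan anaemia gene, had 336 CPM per kb, Rps3 of the mRNA entry channel had 290, Rpl7 had 442, and Rps27 had 417.

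Among the lowest levels were those of copies that stand beside a more abundant partner. Rpl22l1 had 20.6 CPM per kb beside 73.8 for Rpl22, Rpl7l1 had 39.7 beside the 442 of Rpl7, and Rps27l, known as a p53 target, had 136 beside the 417 of Rps27. In CPM not divided by length, Rpl22l1 had 10.8 beside 151 for Rpl22. Rpl7l1 had 103 beside 514 for Rpl7, and Rps27l had 68.1 beside 144 for Rps27. The transcripts of Rpl22 and Rpl7l1 are 2051 and 2606 bases long, so the distance within these pairs also depends on the transcript. After Rpl22l1 and Rpl7l1 the lowest was Rps20 with 59.5 CPM per kb, but its annotated transcript is 3706 bases long, and that of Rps15a, next above it with 63.5, is 5179 bases long. Without division by length these genes had 220 and 329 CPM, so their place depends on the transcript chosen. Rpl39, one of the smallest proteins of the ribosome, had 141 CPM per kb.

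**Figure D1:**
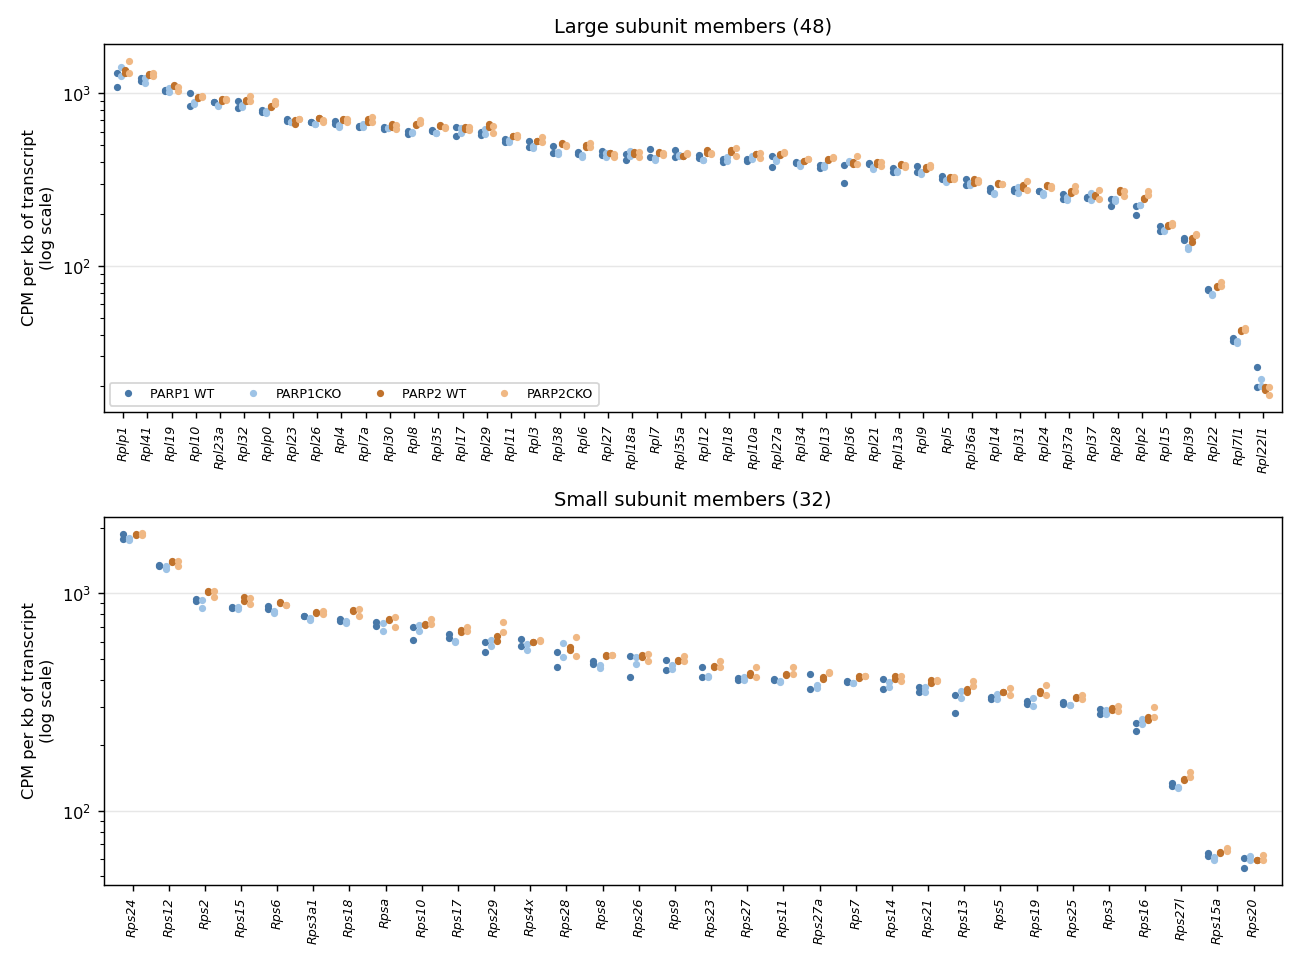
Level of each of the 80 members in every library, in CPM per kb of the representative transcript (log axis), ordered by the mean within the large and the small subunit. Each dot is 1 library, coloured by group. Rps24 (1836 on average) is the highest and Rpl22l1 (20.6) the lowest, and the libraries of a gene lie much closer together than the genes do.

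The members varied little over the 8 libraries. The SD of log2 CPM had a median of 0.0702 over the members, from 0.0308 for the most even to 0.166 for Rpl22l1, against a median of 0.0952 over all genes tested and 0.0607 over the 2136 other genes at 100 CPM or more. The median of the members thus lay between those of all genes and of other genes of high level. Rpl19, the reference gene, had CPM of 773 and 762 (PARP1 WT), 788 and 752 (PARP1CKO), 810 and 828 (PARP2 WT), and 797 and 758 (PARP2CKO). Its highest library was 1.10 times its lowest, and its SD of 0.0493 was above that of 15.5% of all genes tested. Its log2 fold change was 0.0050 in PARP1CKO against PARP1 WT (95% interval -0.099 to 0.11) and -0.075 in PARP2CKO against PARP2 WT (-0.18 to 0.029). The first of these has no stable sign, as it lay between -0.029 and 0.037 over the alternative settings (0.013 without PARP1 WT replicate 1). Neither passed the test (adjusted p = 0.975 and 0.954, edgeR).

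RefSeq promoter windows on GRCm38.p6, from 250 bases before to 50 bases after the start, were matched for 60 of the 80 members. A stretch of 6 or more pyrimidines that opens with a C within 10 bases of the start, whatever base precedes it, was found in 33 of 60 (55%), against 21.8% of 26965 other genes. A gene with several annotated starts was counted when any of them had the feature. The other genes are all those with a promoter window, whatever their level in these cells, so they are not matched to the members in level. On either strand, CCGGAA (the core bound by ETS factors) was in 56.7% of these members and 16.6% of other genes, GGGCGG (the GC box) in 63.3% and 38.2%, and AAGATGG (a YY1 core) in 16.7% and 7.26%. CACGTG was in 10% and 8.09%, and TATAAA in 11.7% and 15.7%. These are matches of letters only, counted for each motif whether or not it overlapped another. The 30 bases around the start are shown for a textbook TOP gene, Rps6, and for 5 members whose values are described below, with 15 bases before the start and in capitals the pyrimidine stretch whose opening C is nearest to the start. Rpl19 has 2 annotated starts, and the window of the upstream one, given first, holds no such stretch.
Rps6: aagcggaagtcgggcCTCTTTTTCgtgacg
Rpl28: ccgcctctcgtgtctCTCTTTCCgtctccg
Rplp2: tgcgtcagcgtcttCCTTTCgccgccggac
Rpl39: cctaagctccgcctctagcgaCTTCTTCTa
Rpl22l1: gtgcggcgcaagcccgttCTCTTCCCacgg
Rpl19 (upstream start): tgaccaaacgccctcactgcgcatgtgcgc
Rpl19 (downstream start): tgggctctcCCCTTCgcagataatgggcgg
The windows lie at chr4:86857353-86857382 (minus strand), chr7:4792950-4792979 (plus), chr7:141447636-141447665 (plus), chrX:37085208-37085237 (minus), chr3:28805493-28805522 (plus), chr11:98026695-98026724 (plus) and chr11:98026909-98026938 (plus), in that order. The capitals open at the annotated start itself in Rps6 and Rpl28 and 1 base before it in Rplp2, and they open 3 bases after it in Rpl22l1, 6 bases after it in Rpl39 and 6 bases before the downstream start of Rpl19. Except in Rpl39, the pyrimidines continue upstream of the capitals, which therefore mark only part of the run. Rpl7l1, Rpl22, Rpl23, Rps13 and Rps28, also described below, had no such stretch near their annotated starts. The starts used by these cells were not measured, so a missing stretch does not show that an mRNA lacks a TOP.

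Deletion of PARP1 left no member past the test. In PARP1CKO against PARP1 WT, 0 of 80 members passed the quasi-likelihood test of edgeR at an adjusted p of 0.05 (Benjamini-Hochberg over all 13197 genes), where 0.106% of genes passed. The likelihood-ratio test and DESeq2 also called 0 members (all genes 1.11% and 0.789%), and 3 members (3.75%) had an unadjusted p under 0.05, against 11.3% of all genes. The median log2 fold change of the members was -0.032, a difference of 2.26%, beside 0.0059 for all genes, and 25 members were higher and 55 lower, where 52.1% of all genes were higher. The large and small subunits had medians of -0.033 and -0.027. In 26 members both PARP1CKO libraries lay below both PARP1 WT libraries and in 2 both lay above, where 20.2% and 21% of all genes did so. In PARP1CKO replicate 2, 2 members were above their own mean over the 8 libraries, and in PARP1CKO replicate 1, 19 were, which lies between the 24 and 14 of PARP1 WT. Without PARP1CKO replicate 2 the median was -0.012 (34 higher), without PARP1CKO replicate 1 it was -0.049 (15 higher) and without PARP1 WT replicate 1 it was -0.021 (29 higher), and it lay between -0.049 and -0.012 when each library in turn was left out.

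Rpl39 had the lowest fold change. It stood at 88.2 and 86.4 CPM in PARP1 WT and at 78.9 and 76.5 CPM in PARP1CKO. Both PARP1CKO libraries were below both PARP1 WT libraries, with a log2 fold change of -0.17 (SE 0.0408, adjusted p = 0.25 in edgeR), and the adjusted p ranged from 0.120 to 0.504 over the alternatives. Rpl39 lies on chromosome X of mm10 from 37082520 to 37085402, and its 612-base transcript of 3 exons shares 7.62% of its 75-base stretches with other genes.

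Rpl7, of the large subunit, had 555 and 495 CPM in PARP1 WT IMCs against 488 and 478 CPM in PARP1CKO IMCs. The log2 fold change was -0.12 (SE 0.0553, adjusted p = 0.450, edgeR), and much of the distance came from PARP1 WT replicate 1, as the value was -0.040 without that library. Rpl22l1 had 13.7 and 10.5 CPM in PARP1 WT IMCs against 10.6 and 11.6 CPM in PARP1CKO IMCs, so the groups overlapped. Its value of -0.12 (SE 0.126) became 0.083 without PARP1 WT replicate 1.

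At the other end was Rpl36, of the large subunit, with 115 and 147 CPM in PARP1 WT and 153 and 154 CPM in PARP1CKO. The groups did not overlap, but the low PARP1 WT replicate 1 set most of the log2 fold change of 0.22 (SE 0.0987, adjusted p = 0.442, edgeR), which was 0.058 without that library. Rplp1 had 546 and 656 CPM in PARP1 WT IMCs against 710 and 626 CPM in PARP1CKO IMCs, and Rps28, of the small subunit, had 180 and 211 and then 231 and 200 CPM. In both genes the groups overlapped, with log2 fold changes of 0.15 (SE 0.102) and 0.14 (SE 0.107). These were 0.024 and 0.032 without PARP1 WT replicate 1 and 0.057 and 0.033 without PARP1CKO replicate 1, so neither value was stable.

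In this comparison the 95% interval of 73 of the 80 members stayed within 0.25 of 0 on the log2 scale, and that of all 80 within 0.5. The farthest bound was 0.448, for Rpl36.

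Deletion of PARP2 likewise left no member past the test. In PARP2CKO against PARP2 WT, 0 of 80 members passed in edgeR (all genes 0.053%), 0 in the likelihood-ratio test (0.296%) and 0 in DESeq2 (0.213%), and 2 members (2.5%) had an unadjusted p under 0.05, against 4.83% of all genes. The median was 0.015, a difference of 1.07%, with 48 members higher and 32 lower, beside a median of -0.0014 for all genes, of which 49.3% were higher. That sign was not stable, since the median was -0.020 without PARP2CKO replicate 1, beside -0.0022 for all genes. With libraries scaled by size alone it was -0.010 (29 higher and 51 lower), but that scaling moves all genes alike and took their median to -0.027. Of the 80 members, 79 were above their own mean over the 8 libraries in PARP2CKO replicate 1 and 54 in PARP2CKO replicate 2, against 74 and 73 in PARP2 WT, so the knockout libraries lay on either side of the WT. Both PARP2CKO libraries lay above both PARP2 WT libraries in 22 members and below in 8, where 18.4% and 18.8% of all genes did so.

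Rps29, a small zinc-binding protein of the small subunit, was the highest. It had 248 and 234 CPM in PARP2 WT IMCs against 288 and 259 CPM in PARP2CKO IMCs. The groups did not overlap, and the log2 fold change was 0.18 (SE 0.0679, adjusted p = 0.931 in edgeR), or 0.10 without PARP2CKO replicate 1. Rps13, which also belongs to the small subunit, had 214 and 206 CPM in PARP2 WT IMCs against 233 and 221 CPM in PARP2CKO IMCs (log2 fold change 0.11, SE 0.0791, and 0.073 without PARP2CKO replicate 1), and Rpl39 had 88.4 and 84.5 and then 94.0 and 92.6 CPM (0.11, SE 0.0402, adjusted p = 0.903 in edgeR). In both genes the PARP2CKO libraries lay above the PARP2 WT libraries.

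The lowest were Rpl29, of the large subunit, with 469 and 487 CPM in PARP2 WT against 475 and 432 CPM in PARP2CKO (log2 fold change -0.075, SE 0.0590), then Rpl19 as given above, and Rpl22l1 with 9.96 and 10.5 and then 9.32 and 10.4 CPM (-0.051, SE 0.125). The Rpl29 and Rpl22l1 groups overlapped. Rpl29 was -0.0093 without PARP2CKO replicate 2, Rpl19 was -0.039 without that library, and Rpl22l1 changed sign without PARP2CKO replicate 1, to 0.031. The interval of 74 members stayed within 0.25 of 0 and that of all 80 within 0.5, with a farthest bound of 0.335.

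The plot of members by library shows these small displacements beside the larger one between the lines. The median deviation of the members from their own means was -0.032 and -0.040 (PARP1 WT), -0.037 and -0.080 (PARP1CKO), 0.047 and 0.037 (PARP2 WT), and 0.085 and 0.022 (PARP2CKO). With the TMM scaling used here all 4 PARP1-line values were below 0 and all 4 PARP2-line values above it. The medians of all genes lay between -0.00061 and 0.0043 in the 8 libraries. With library size alone, an alternative added after seeing the data that moves every gene of a library alike, the members were at 7.82e-05 in PARP1 WT replicate 1 and at -0.0020 in PARP2CKO replicate 2. The distance between the replicates of PARP1CKO and of PARP2CKO was as large as that of either knockout from its WT.

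**Figure D2:**
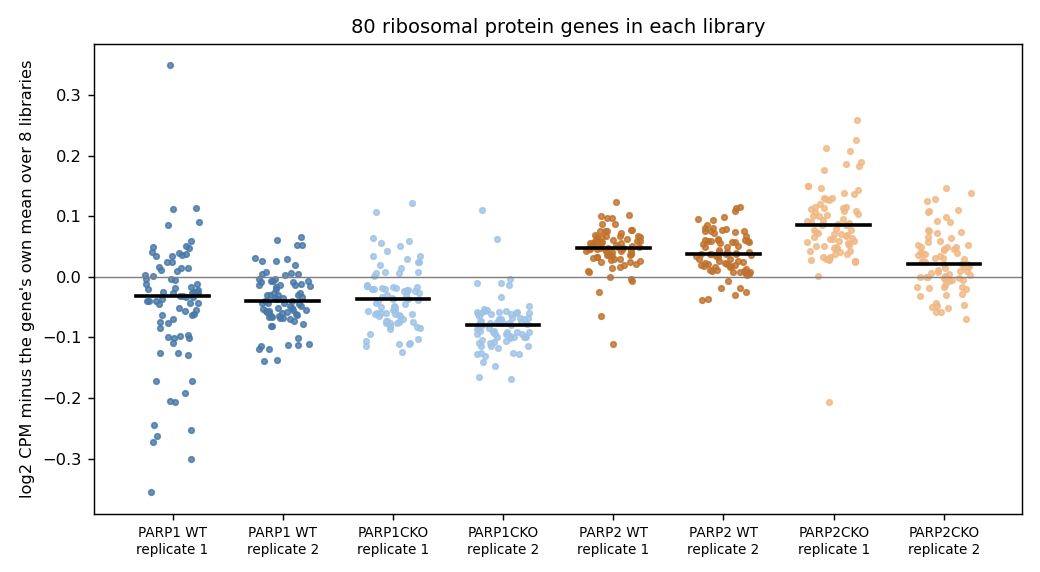
Deviation of each member from its own mean over the 8 libraries, in log2 CPM scaled by TMM, for every library. Dots are the 80 genes and the black bar is their median. The medians of the 4 PARP1-line libraries lie between -0.080 and -0.032 and those of the 4 PARP2-line libraries between 0.022 and 0.085, and PARP1 WT replicate 1 has the widest scatter.

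Whether the 2 deletions differed in effect was tested by the difference of the effects, which uses the same 8 libraries. In edgeR 0 of 80 members passed, where 0.0152% of all genes did, and DESeq2 called 0 (all genes 0.403%). The likelihood-ratio test called 1 member (1.25%, all genes 0.546%), and 2 (2.5%) had an unadjusted p under 0.05, against 7.69% of all genes. The median of the members was 0.030, with 58 above and 22 below 0, beside -0.0070 for all genes, of which 47.8% were above 0. Its size depended on single libraries. It was 0.016 without PARP1CKO replicate 2 (44 above, 36 below), 0.016 without PARP2CKO replicate 1 (45 and 35), 0.056 without PARP1CKO replicate 1 (65 and 15) and 0.059 without PARP2CKO replicate 2 (70 and 10). With library size alone it was 0.0086, with 45 above and 35 below 0, beside -0.028 for all genes.

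Rpl39, whose values in the libraries are given above, had the largest difference, 0.28 (SE 0.0573, 95% interval 0.15 to 0.41, adjusted p = 0.267 in edgeR). It was the member that the likelihood-ratio test called, at an adjusted p of 0.0484, and over all alternatives its adjusted p ranged up to 0.901. The difference itself lay between 0.25 and 0.31 throughout. It is made of a level that was lower in PARP1CKO and higher in PARP2CKO than in the WT of the line, without overlap in either.

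Rps27a, which encodes a fusion of ubiquitin and a small subunit protein, followed with 0.16 (SE 0.0930), which was 0.051 without PARP1 WT replicate 1. Its CPM were 337 and 288 (PARP1 WT), 300 and 291 (PARP1CKO), 320 and 326 (PARP2 WT), and 344 and 340 (PARP2CKO), so the groups of the PARP1 line overlapped. Rpl22, an RNA-binding large subunit protein, had a difference of 0.15 (SE 0.0562, adjusted p = 0.609 in edgeR). Its CPM were 148 and 150 (PARP1 WT), 140 and 138 (PARP1CKO), 157 and 154 (PARP2 WT), and 157 and 165 (PARP2CKO). Its PARP1CKO libraries were the lowest of the 8, and its PARP2CKO and PARP2 WT libraries overlapped.

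The lowest differences were those of Rpl36 with -0.16 (SE 0.139), Rpl29 with -0.11 (SE 0.0836, and -0.047 without PARP2CKO replicate 2) and Rps28 with -0.11 (SE 0.151). Rpl36 was 0.0048 and Rps28 0.0054 without PARP1 WT replicate 1, so neither kept its sign without that library. Rps28 was also above 0 without PARP1CKO replicate 1 (0.0031) and without PARP2CKO replicate 2 (0.026).

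The members stood higher in PARP2 WT than in PARP1 WT IMCs as a group, although no single member passed the main edgeR test. The median log2 fold change was 0.080, a difference of 5.70%, beside 0.0013 for all genes, and 75 members were higher and 5 lower, where 50.4% of all genes were higher. All 32 small subunit members and 43 of the 48 large subunit members were above 0. In 56 members (70%) both PARP2 WT libraries lay above both PARP1 WT libraries, where 26.7% of all genes did, and in 0 members both lay below, where 25.2% did. The median stayed above 0 under every scaling and in every fit without a library, between 0.041 (library size alone) and 0.088 (without PARP1 WT replicate 1). With library size alone the median of all genes was -0.038, and 65 members were above 0 and 15 below. A change of scaling moves members and other genes alike, so it does not test their distance. The PARP1 WT libraries also enter the PARP1CKO comparison, and the PARP2 WT libraries the PARP2CKO comparison, so the values of these comparisons are not independent.

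In edgeR 0 of 80 members passed in that comparison (all genes 3.16%), and the smallest adjusted p was 0.0563. Unadjusted p-values under 0.05 were found for 22 members (27.5%), all of them higher, against 10.3% of all genes in that direction. DESeq2 called 4 members (5%, all genes 4.43%), Rpl8, Rpl18, Rpl28 and Rplp2, and the likelihood-ratio test called 3 (3.75%, all genes 6.9%), Rpl7l1, Rpl28 and Rplp2. Without a filter on low counts edgeR called the same 3 (all genes 4.97%), and at an adjusted p of 0.1 it called 4 (5%, all genes 5.9%). Rpl8, Rpl18 and Rpl7l1 are named here after their values were seen. Without PARP1 WT replicate 2, edgeR called 4 (5%, all genes 2.38%), Rpl28, Rpl36, Rplp2 and Rps13, and without PARP1 WT replicate 1 it called 0 (all genes 0.633%).

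Rplp2, the stalk protein, had 189 and 214 CPM in PARP1 WT IMCs against 239 and 236 CPM in PARP2 WT IMCs. The groups did not overlap, with a log2 fold change of 0.24 (SE 0.0594, adjusted p = 0.0752 in edgeR), and the adjusted p lay between 0.0105 and 0.301 over the alternatives. Without PARP1 WT replicate 1 the fold change was 0.15. Rplp2 lies on chromosome 7 of mm10 from 141447370 to 141451585, and its transcript has 5 exons and 964 bases.

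Rpl28, of the large subunit, had 247 and 270 CPM in PARP1 WT IMCs against 303 and 297 CPM in PARP2 WT IMCs. The log2 fold change was 0.22 (SE 0.0532, adjusted p = 0.0702 in edgeR), without overlap, and the adjusted p lay between 0.0117 and 0.314 over the alternatives. Rpl28 lies on chromosome 7 from 4792874 to 4795066, with 5 exons in a transcript of 1106 bases. Rpl36 had 115 and 147 CPM in PARP1 WT IMCs against 150 and 152 CPM in PARP2 WT IMCs (0.20, SE 0.0985, adjusted p = 0.317 in edgeR), and its value was 0.036 without PARP1 WT replicate 1.

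Rpl22l1 was the lowest and went the other way, with 13.7 and 10.5 CPM in PARP1 WT and 9.96 and 10.5 CPM in PARP2 WT. Its log2 fold change of -0.24 (SE 0.125, adjusted p = 0.354 in edgeR) was -0.035 without PARP1 WT replicate 1, and the high value of PARP1 WT replicate 1 stood alone among the 8 libraries. Rpl35a and Rpl23, both of the large subunit, were next with -0.050 (SE 0.0487) and -0.043 (SE 0.0437). Rpl35a had 230 and 209 CPM in PARP1 WT IMCs against 213 and 212 CPM in PARP2 WT IMCs, and it was 0.020 without PARP1 WT replicate 1. Rpl23 had 752 and 729 and then 700 and 737 CPM, and was -0.020 without PARP1 WT replicate 1 and -0.0061 without PARP2 WT replicate 1. The groups overlapped in both genes. Rpl19 had a value of 0.094 (SE 0.0459, adjusted p = 0.313 in edgeR), close to the median of the members, with both PARP2 WT libraries above both PARP1 WT libraries. Over the alternative settings this value of Rpl19 lay between 0.045 and 0.11.

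**Figure D3:**
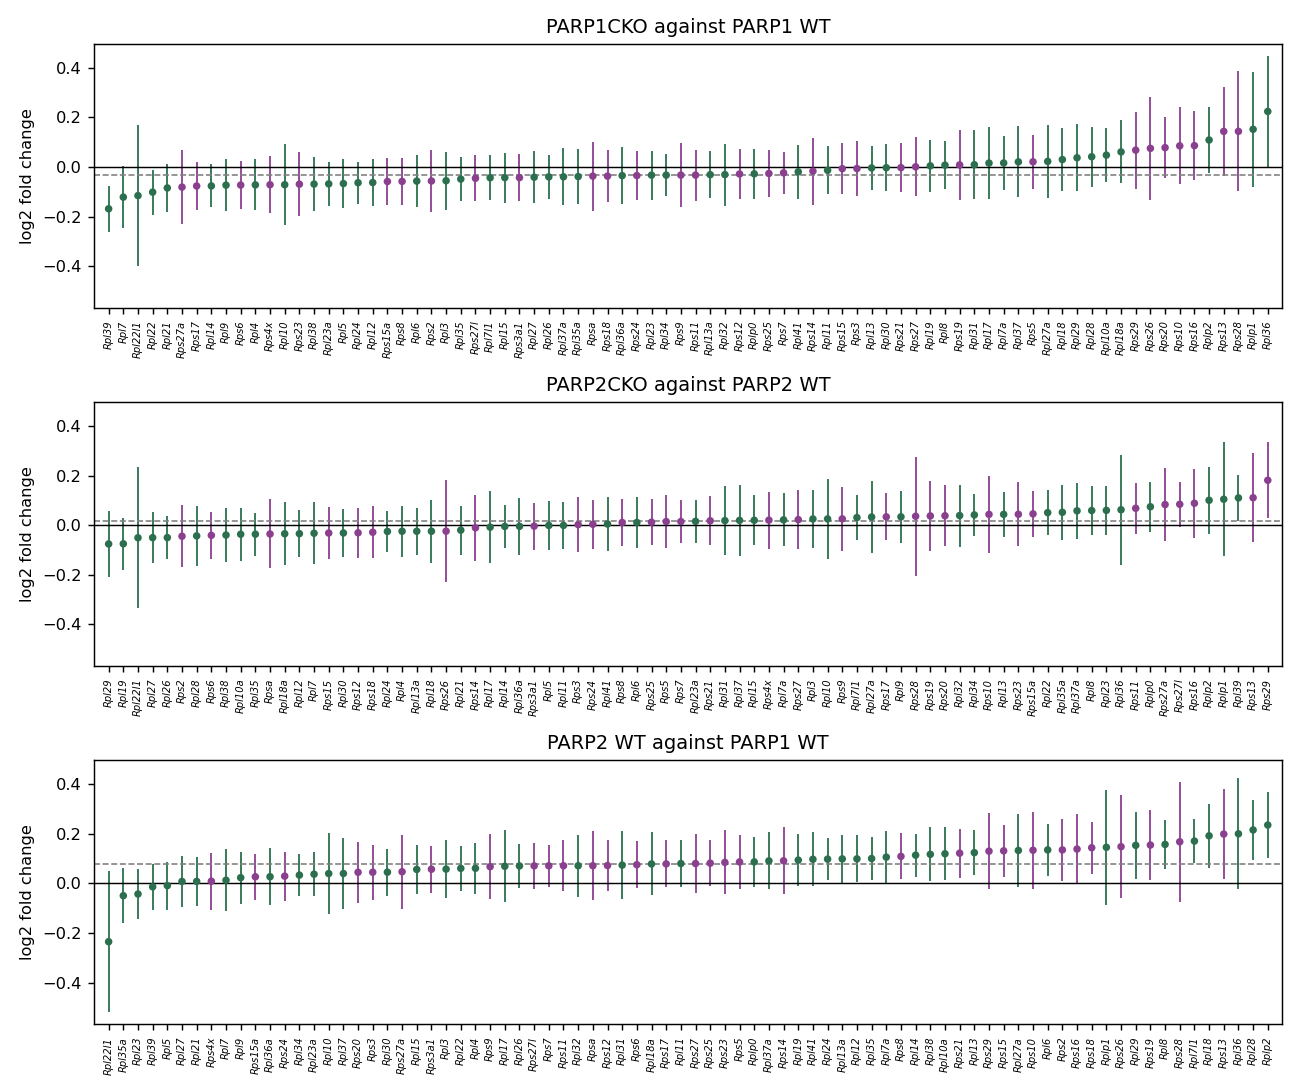
Log2 fold change of each of the 80 members with its 95% interval, ordered within each comparison, for each knockout against the WT of its line and for PARP2 WT against PARP1 WT. Green marks large and purple small subunit members, and the dashed line is the median (-0.032, 0.015 and 0.080). The median of PARP2CKO against PARP2 WT turns to -0.020 without PARP2CKO replicate 1, and to -0.010 when libraries are scaled by size alone, which moves all genes alike (their median is then -0.027), and 75 of 80 members are above 0 between the WT groups.

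RNA levels of cell type markers differed between the WT groups too. In edgeR, 5 of 6 tested B cell markers were lower in PARP2 WT, and the list of 7 summed to between 24.1 and 27.7 CPM in PARP1 WT and between 7.92 and 9.53 CPM in PARP2 WT. For the other lists, too, the sums include genes that were not tested. Of 14 monocyte and macrophage markers 4 were higher and 1 lower, with sums between 10579 and 11580 CPM in PARP1 WT and between 15178 and 16505 CPM in PARP2 WT, mostly from Lyz2. Of 15 neutrophil markers 3 were higher and 1 lower (3584 to 3909 and 3948 to 4253 CPM), of 9 progenitor markers 1, Kit, was lower (289 to 318 and 292 to 297 CPM), although 7 of the 9 were below 0 with a median of -0.40 and 4 had an unadjusted p under 0.05, and of 7 erythroid markers 2 were lower (8.86 to 9.25 and 5.42 to 6.17 CPM). The likelihood-ratio test called 9 neutrophil and 5 monocyte and macrophage markers, and DESeq2 called 8 and 5. An unadjusted p under 0.05 was found for 9 (60%) and 6 (42.9%) of them, against 18.9% of all genes. Of the neutrophil markers 9 were above and 6 below 0. The lists of T and NK cells (4.57 to 5.32 and 5.07 to 5.65 CPM) and of basophils and mast cells (30.4 and 15.4 to 20.7 CPM) had 0 calls of 4 and 7 tested in edgeR, 0 and 6 of them at an unadjusted p under 0.05, and the likelihood-ratio test called 0 and 4 and DESeq2 0 and 2. The T cell genes Cd3d, Cd3e and Cd3g were at 0.115 CPM or less in each WT library, and Csf1r and Itgam, of the myeloid lineage, were at 1134 to 1266 and 910 to 967 CPM. In the knockout comparisons 0 markers of these lists were called by edgeR. Of the 14 monocyte and macrophage markers 6 were above and 8 below 0 in each knockout, with 4 and 6 at an unadjusted p under 0.05, and the likelihood-ratio test called 3 and 2 and DESeq2 2 and 2. Their sum was 8490 to 9240 CPM in PARP1CKO and 11288 to 12522 CPM in PARP2CKO, below the WT of the line. Lyz2 itself encodes a lysozyme, and lysozyme-Cre, which the knockout mice alone carry, is commonly a knock-in at that gene. Without Lyz2, a sum added after seeing the data, the level was 4867 to 5194 CPM in PARP1 WT and 4907 to 4996 in PARP1CKO, and 5455 to 5702 CPM in PARP2 WT and 5542 to 5782 in PARP2CKO, so knockout and WT overlapped in both lines. In PARP1CKO the likelihood-ratio test called 1 progenitor and 2 erythroid markers and DESeq2 1 and 0. In PARP2CKO both called 1 neutrophil marker, and 12 of 15 neutrophil markers were below 0 (median -0.13). Small lists also lay to one side. In PARP2CKO all 7 tested basophil and mast cell markers were below 0 (median -0.48, 2 at an unadjusted p under 0.05, sums of 11.9 to 14.1 CPM), as were all 4 of T and NK cells (median -0.37, 0 at that level, sums of 4.01 to 4.60 CPM), and neither sum overlapped that of PARP2 WT. In PARP1CKO all 6 B cell markers (median 0.24, 0 at that level, 24.5 to 34.3 CPM) and all 4 of T and NK cells (0.28, 1 at that level, 5.09 to 6.86 CPM) were above 0, with sums that overlapped PARP1 WT, and the erythroid sum (11.2 to 14.3 CPM, 5 of 7 above 0) did not overlap it. The part of these differences in the level of the members was not tested, and in bulk RNA fewer cells of a type and less RNA per cell cannot be told apart.

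The relation of the shift to the GC content and the length of the transcript was examined in each comparison. The members have a median transcript length of 786 bases (345 to 5179) and a median GC content of 50.7% (39.0% to 60.8%), while the 13084 tested genes with an annotated transcript have medians of 2609 bases and 50.5%. Members are thus short, and ordinary in GC content. The correlations below are descriptions over genes of the same libraries, which are not independent replicates.

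Between the WT groups the shift of the members followed GC content. Spearman's rho was 0.69 and Pearson's r 0.68 over the 80 members, and rho was 0.31 and r 0.15 over all 13084 genes. From the tercile of members lowest in GC (27 genes, 39.0% to 49.2%) to the middle (26 genes) and the highest tercile (27 genes, 53.0% to 60.8%), the median log2 fold change went from 0.045 to 0.079 to 0.12. Other genes in the same GC ranges had medians of -0.037, 0.0021 and 0.051. The medians of the members therefore lay above those of the other genes by a like amount in each range. Length gave a rho of -0.13 over the members and -0.094 over all genes, and terciles by length had medians of 0.080, 0.090 and 0.071, beside 0.034, 0.036 and 0.0016 for other genes of those lengths.

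When the trend with length and GC content over all genes was removed from each library, rho with GC content over the members became -0.098, and the median between the WT groups became 0.060, with 75 members above 0. With the length trend alone removed the median was 0.053 (67 above 0), and with the GC trend alone 0.073 (76 above 0). The shift was thus smaller but above 0 in each of these fits, which shared all libraries with the main one. In these fits edgeR called 1, 0 and 1 member, the one being Rpl7l1, where 2.85%, 3.3% and 2.7% of all genes were called, a larger share than the 1.25% of the members. The relation with length turned its sign when both trends were removed, to a rho of 0.35, with medians of 0.051, 0.054 and 0.082 from the shortest to the longest tercile. It also turned without PARP1 WT replicate 1, to 0.13.

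The relation to GC content also depended on a library. Between single WT libraries rho over the members was 0.51 and 0.61 against PARP1 WT replicate 1 and 0.31 and 0.42 against PARP1 WT replicate 2, and the fit without PARP1 WT replicate 1 gave 0.40. Replicates of a group also differed along GC content, with rho over the members of 0.30 in PARP1 WT, -0.24 in PARP1CKO, 0.21 in PARP2 WT and -0.36 in PARP2CKO for replicate 2 minus replicate 1.

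In PARP1CKO against PARP1 WT rho with GC content was 0.43 over the members and 0.33 over all genes, and the terciles of the members had medians of -0.043, -0.038 and -0.0034, beside -0.033, 0.010 and 0.048 for other genes in the same ranges. With length, the Spearman correlation was -0.20 over the members and 0.030 over all genes. After removal of both trends the median of the members was -0.027, with 27 above and 53 below 0. Without PARP1 WT replicate 1, rho was 0.20 with GC content and -0.12 with length. Between single libraries rho with length was -0.19 and -0.22 against PARP1 WT replicate 1 and -0.11 and -0.026 against PARP1 WT replicate 2. In PARP2CKO against PARP2 WT rho was -0.088 with GC content and -0.093 with length over the members, 0.086 and -0.038 over all genes, and after removal of both trends rho with GC content was -0.25 and the median 0.015. Between single libraries of this line, rho with GC content over the members was 0.17 and -0.023 for PARP2CKO replicate 1. For PARP2CKO replicate 2 it was -0.20 and -0.29, against PARP2 WT replicates 1 and 2 in that order, so the sign depended on the library. For the difference of the effects, rho with GC content was -0.42 over the members and -0.21 over all genes, and the median went from 0.030 to 0.024.

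**Figure D4:**
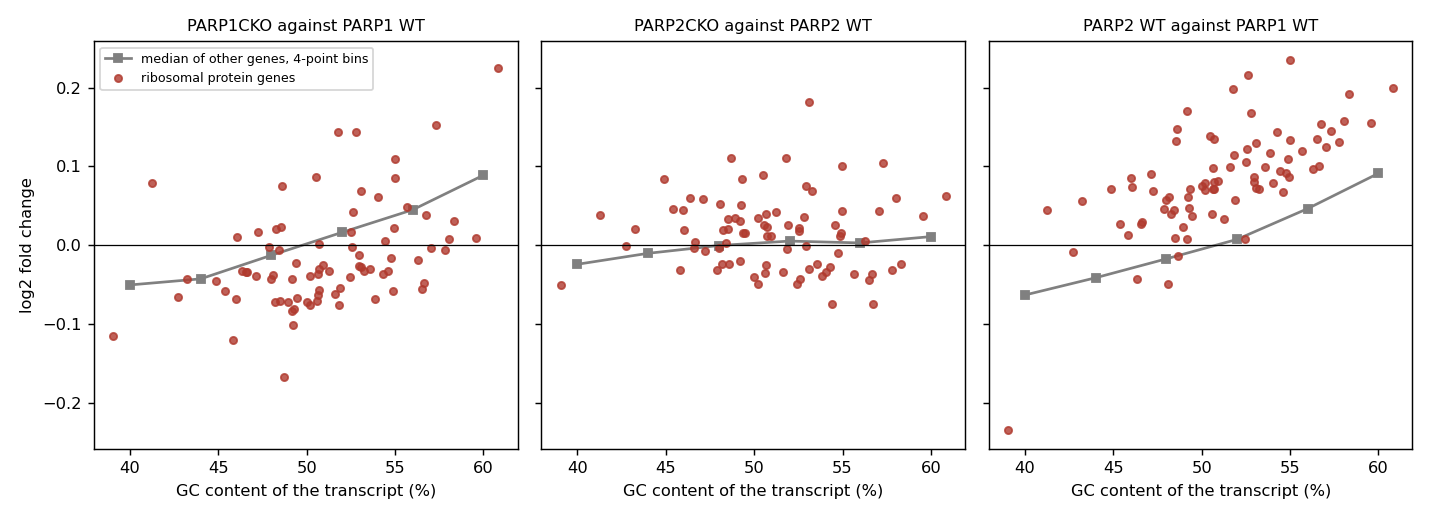
Log2 fold change of each member (red dots) against the GC content of its transcript, in 3 comparisons, with the median of the other tested genes in bins of 4 percentage points (grey squares). Between the WT groups the members climb with GC content (rho 0.69) and their medians lie above those of other genes of like GC content, while single members such as Rpl22l1 lie below the grey squares. In PARP2CKO against PARP2 WT there is little slope between the groups (rho -0.088), while between single libraries rho runs from -0.29 to 0.17.

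Other features of the genes were compared by the same medians. Members with such a pyrimidine stretch at the start had a median of 0.099 between the WT groups (30 of 33 above 0) and those without had 0.071 (25 of 27). The medians were -0.032 and -0.034 in PARP1CKO against PARP1 WT and 0.011 and 0.015 in PARP2CKO against PARP2 WT. Between the start and end of 30 members lie 58 annotated snoRNA genes on the same strand, which guide the modification of ribosomal RNA. These 30 members had medians of 0.071, -0.031 and 0.013 in the same order, beside 0.087, -0.032 and 0.017 for the other 50.

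Many processed copies of these genes exist in the mouse genome, so read sharing was measured on the annotation. In 78 of 80 members at least 1 stretch of 75 bases, the read length, also occurs in another annotated gene, and in 39 members 50% or more do. The range runs from 0% in Rps3 to 98.5% in Rps27. The counts of these 39 are uncertain where reads on several genes were dropped or split. Medians of the 41 less shared members were -0.030 in PARP1CKO, 0.031 in PARP2CKO and 0.086 between the WT groups, and those of the 39 more shared members were -0.036, -0.00071 and 0.080.

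A list of 4 ribosomal protein genes outside the symbol rule had medians of 0.0022 in PARP1CKO, 0.022 in PARP2CKO and 0.077 between the WT groups. They are Fau, Gnb2l1 (the ribosome-bound RACK1), Rpl36al and Rps27rt, and 4 of 4 had a value above 0 between PARP2 WT and PARP1 WT. Rps27rt had nearly the level of the member Rps27 in each of the 8 libraries and is not a measurement apart from it. Between the WT groups Fau had 205 and 204 CPM and then 229 and 224 CPM. Of these 4 genes 0 were called in any comparison by edgeR, the likelihood-ratio test or DESeq2, and 1 had an unadjusted p under 0.05, between the WT groups. Of the 6 tested pseudogene rows, 5 were low, at 7.13 CPM or less in each library, and Rpl34-ps1 had nearly the level of the member Rpl34 (189 CPM for both in PARP1 WT replicate 1) and a value of 0.033 between the WT groups. The medians of the 6, which are set by the low rows, were -0.36, -0.32 and -0.47, with 0 calls by any of these tools and 1, 1 and 2 at an unadjusted p under 0.05.

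The 77 mitochondrial ribosomal proteins, which serve the separate ribosome of that organelle, had a median of 0.059 between the WT groups, with 57 above 0 and 20 below. In edgeR 0 were called in any comparison, and 5, 3, 2 and 12 had an unadjusted p under 0.05 in PARP1CKO, in PARP2CKO, in the difference of the effects and between the WT groups. The 12 between the WT groups are 15.6% of the list, below the 18.9% of all genes. The likelihood-ratio test called 1 in PARP2CKO (1.3%, all genes 0.296%) and 2 between the WT groups (2.6%, all genes 6.9%), and DESeq2 called 0 in each of the 4 comparisons (all genes 0.789%, 0.213%, 0.403% and 4.43%, in that order). Their medians in PARP1CKO and PARP2CKO were -0.0083 and 0.0036.

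Genes that make or use ribosomes were examined from lists. In PARP1CKO against PARP1 WT, 43 ribosome assembly factors had a median of -0.086, with 35 below 0, 0 called by edgeR, 3 by the likelihood-ratio test (6.98%, all genes 1.11%), 2 by DESeq2 (all genes 0.789%) and 13 at an unadjusted p under 0.05 (30.2%, all genes 11.3%). Their sum was 4678 to 4870 CPM in PARP1 WT and 4365 to 4508 CPM in PARP1CKO, without overlap. RNA polymerase I, which transcribes ribosomal RNA, had a median of -0.070 over 19 subunits and factors (2 at an unadjusted p under 0.05, 10.5%). A list of 20 other genes whose mRNAs carry a TOP, translation factors and others such as Hnrnpa1 and Tpt1, had -0.062 (4 at that level, 20%). It also holds Gnb2l1, counted above. In these 2 lists none was called by any of the 3 tools. In PARP2CKO against PARP2 WT the same lists had medians of 0.0075, 0.030 and 0.017, with 0 calls by any tool and 1, 0 and 0 genes at an unadjusted p under 0.05. For the difference of the effects the medians were 0.083, 0.083 and 0.067, with 36 of 43, 17 of 19 and 18 of 20 genes above 0. Any tool called 0 of them, and 8, 1 and 1 genes (18.6%, 5.26% and 5%, all genes 7.69%) had an unadjusted p under 0.05. Between the WT groups the medians were 0.019, -0.023 and 0.055, with 0 calls by any tool and 5, 1 and 1 genes at that level. The higher level of the members there was thus not accompanied by a like median in the first 2 lists.

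Regulators of ribosomal protein genes, 20 in number, had medians of -0.0018, -0.024 and 0.0036 in PARP1CKO, in PARP2CKO and between the WT groups, with 0 calls by any tool and 3, 1 and 2 genes (15%, 5% and 10%) at an unadjusted p under 0.05. The 20 proliferation genes had medians of -0.056, -0.013 and -0.088. In edgeR 0 of them were called, 1 was called by the likelihood-ratio test and 1 by DESeq2 between the WT groups, and 3, 1 and 8 (15%, 5% and 40%) had an unadjusted p under 0.05, where 11.3%, 4.83% and 18.9% of all genes did. Between the WT groups 19 of these 20 had a value below 0, opposite in sign to the median of the members. The 3 tested nuclear long noncoding RNAs had medians of 0.21, 0.0038 and -0.13, with 0 calls in edgeR, 1 in PARP1CKO by the likelihood-ratio test and by DESeq2, and 1, 0 and 1 at an unadjusted p under 0.05.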

How the data were processed

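Total RNA of 8 libraries was sequenced as strand-specific, single-end reads. Per the labels and the study's methods, the authors trimmed reads, mapped them to mm10 with TopHat 2.0.12, marked duplicates with Picard 1.127 and deposited raw counts per gene from featureCounts. The annotation, the strand setting and the treatment of reads on several genes are not given in the sources used here. Counts ranged from 37852450 to 61845125 per library, and 6520 of 24062 rows had none.

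The main test was edgeR 4.0.16 (R 4.3.3), a quasi-likelihood fit of 4 group means to all 8 libraries with TMM scaling and filterByExpr, Benjamini-Hochberg adjustment over 13197 genes and a threshold of 0.05. Intervals are 95% and use the moderated degrees of freedom. CPM are scaled by TMM, and log2 CPM used a prior count of 2. Lengths, exon numbers and GC content are of the shortest coding GENCODE M21 transcript (GRCm38, mm10) with a RefSeq match. Positions of Rpl39, Rplp2 and Rpl28 are those of the whole gene in that annotation. The length and GC trend was a spline with 5 degrees of freedom per library. DESeq2 1.42.0, the likelihood-ratio test, other scalings and filters, a replicate block and leaving out each library were alternatives. Scripts were tested on simulated data.

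Named were the 3 highest and 3 lowest members of each comparison, the 5 highest and 3 lowest levels per kb, and a set of well-known members. Members, rule and gene lists were chosen with earlier results of these data known. A few genes are not reported here and were left out of their lists. Fold changes are printed for the extremes and Rpl19.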

Additional observations from a re-analysis of the deposited data

How the results depend on the processing

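With 2 libraries per group, differences between groups rest on 1 spread shared by all libraries, and the farther bound of a member's 95% interval had a median of 0.156 in PARP1CKO, 0.144 in PARP2CKO and 0.197 between the WT groups. The count of members called stayed at 0 in every alternative run for PARP1CKO and for PARP2CKO. For the difference of the effects it was 1 with the likelihood-ratio test. Between the WT groups it was 4 with DESeq2, 3 with the likelihood-ratio test, 3 with no filter, 1 with the length and GC trend removed, 1 with the GC trend removed (added after seeing the data), 4 at an adjusted p of 0.1 (all genes 5.9%), and 0 to 4 when each library was left out in turn.

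With 1 library left out at a time, the medians lay between -0.049 and -0.012 for PARP1CKO, -0.020 and 0.038 for PARP2CKO, 0.016 and 0.059 for the difference of the effects, and 0.071 and 0.088 between the WT groups, where scaling by library size alone gave 0.041. Fits with a replicate block gave medians of -0.032, 0.015, 0.029 and 0.080 and called 0 members. Deviations of same-numbered libraries correlated at -0.133 in the PARP1 line and 0.147 in the PARP2 line, and over the members at -0.423 and 0.14. No label says that a number marks a shared mouse, litter or day, so the numbers were not taken as pairs. With the block the calls among all genes went from 14 to 17, from 7 to 11, from 2 to 1 and from 417 to 315, and with crossed numbers (added after seeing the data) PARP1CKO had 23 and 0 members. Leaving out members with much shared sequence gave -0.030, 0.031, 0.038 and 0.086.

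For Rpl19 in PARP1CKO the sign turned with library size alone (-0.00029), with the length and GC trend removed (-0.013, and -0.013 with the block), and with the GC trend removed (-0.021). Without 1 library it lay between -0.029 and 0.037. In the same fits Rpl22l1 lay between -0.31 and 0.083 in PARP1CKO and between -0.13 and 0.031 in PARP2CKO, Rpl36 between -0.35 and 0.0048 and Rps28 between -0.26 and 0.026 in the difference of the effects, and Rpl35a between -0.12 and 0.020 between the WT groups. The cause was not tested.

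With the 10 most abundant other rows taken out of the total, the share was 3.79% and 3.77% (PARP1 WT), 3.77% and 3.70% (PARP1CKO), 3.95% and 3.93% (PARP2 WT), and 3.98% and 3.85% (PARP2CKO).

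With both trends removed, rho with GC content was -0.15 in PARP1CKO (-0.15 with the block), -0.051 in the difference of the effects (-0.045) and -0.098 between the WT groups (-0.095). With the GC trend removed it was -0.13, -0.075 and -0.0091, and without 1 library it lay between 0.20 and 0.43, between -0.45 and -0.18, and between 0.40 and 0.73. With both trends removed, rho with length was -0.092 in PARP1CKO (-0.097 with the block), 0.0020 in PARP2CKO (0.0067) and 0.35 between the WT groups (0.36). With the GC trend removed it was -0.078 in PARP1CKO and 0.068 between the WT groups, where the length trend removed gave 0.12. Without 1 library it lay between -0.14 and -0.0010 in PARP2CKO, -0.040 and 0.18 in the difference of the effects, and -0.17 and 0.13 between the WT groups. In PARP2CKO rho with GC content went from -0.088 to -0.25 with both trends removed (-0.25 with the block) and to -0.23 with the GC trend removed.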

Other observations

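Rps27 and Rps27rt, which differ little in sequence, had nearly the same level in every library, 141 and 139 CPM in PARP1 WT replicate 1 and 157 and 156 CPM in PARP2CKO replicate 1, for example. The genes Hba-a1 and Hba-a2 had identical values in the WT libraries. How reads shared by such genes were counted is not given in the sources used here.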
